A study of Homo sapiens with 6 samples.

Results

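The genes described here encode secreted ligands and receptors of 3 vascular growth factor systems: the angiopoietin ligands ANGPT1, ANGPT2 and ANGPT4 with the receptor TIE1, the VEGF ligands VEGFB and VEGFC, and the PDGF ligands PDGFA and PDGFC with the receptors PDGFRA and PDGFRB. They are the 10 rows of the gene table, of 27685, that carry these symbols. They were picked with the counts of both groups known, so their differences between the groups are given as a description and without a test. The RNA was polyadenylated RNA of Caco-2, an established human colorectal tumour line, sequenced after TruSeq stranded library preparation. One group of 3 libraries came from mock-transfected cells with the empty plasmid pcDNA3 (vector control). The other 3 came from derivatives labelled hFABP1as, with the genotype given as a knockdown of FABP1, the fatty acid carrier of liver and gut (FABP1 antisense). The labels give neither the number of clones behind a group nor whether its libraries are separate cultures, so p-values reflect the variation among these libraries alone, possibly technical in part, and a difference between lines cannot be told apart from an effect of the construct. Libraries are named by the numbers 2, 3 and 4 of the column headers.

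Angiopoietins signal through the endothelial receptor tyrosine kinases TEK (also called TIE2) and, with it, TIE1. VEGF family ligands act on the kinases FLT1, KDR and FLT4 with the neuropilins NRP1 and NRP2 as coreceptors, and drive growth of blood and lymphatic vessels. PDGF ligands act on PDGFRA and PDGFRB, which in gut tissue mark mainly fibroblasts and pericytes, while epithelial and tumour cells are a known source of the ligands.

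The sequence upstream of the start is shown for a pair of members that were at or near 0 in FABP1 antisense alone, ANGPT4 and PDGFRA, and for a pair listed at 0 in every library, TIE1 and VEGFC. The sequences are RefSeq's, on the GRCh38.p14 build, while the build named for the deposited data is GRCh37. The promoter table matched 7 of the 10 members and did not hold ANGPT1, ANGPT2 or PDGFC. Each sequence is the 250 bases before a start, 5′ to 3′ on the gene's strand, at chr20:916335-916584 on the minus strand (ANGPT4), chr4:54233710-54233959 on the plus strand (PDGFRA, before a start that lies inside the gene), chr1:43300732-43300981 on the plus strand (TIE1) and chr4:176792923-176793172 on the minus strand (VEGFC). Windows of members that run over an annotated exon are not shown. Capitals mark matches on either strand to the TATA box motif TATAAA, the GC box motif GGGCGG, the CCAAT box, which is named by its letters, and the hypoxia response core motif ACGTG. Only these exact letters were searched, so other forms of a motif are neither marked nor counted. No matches overlapped in these 4 windows, and a match describes the letters only, not a bound site.
ANGPT4: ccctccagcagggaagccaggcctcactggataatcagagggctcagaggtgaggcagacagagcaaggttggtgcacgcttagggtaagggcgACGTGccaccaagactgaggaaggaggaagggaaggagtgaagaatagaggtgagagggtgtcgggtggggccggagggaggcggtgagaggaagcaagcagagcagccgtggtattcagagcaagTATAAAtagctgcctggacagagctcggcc
PDGFRA: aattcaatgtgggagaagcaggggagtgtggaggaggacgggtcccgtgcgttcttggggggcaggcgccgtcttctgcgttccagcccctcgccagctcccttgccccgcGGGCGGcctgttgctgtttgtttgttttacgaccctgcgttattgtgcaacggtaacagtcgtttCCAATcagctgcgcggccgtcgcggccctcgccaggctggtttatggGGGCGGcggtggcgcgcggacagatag
TIE1: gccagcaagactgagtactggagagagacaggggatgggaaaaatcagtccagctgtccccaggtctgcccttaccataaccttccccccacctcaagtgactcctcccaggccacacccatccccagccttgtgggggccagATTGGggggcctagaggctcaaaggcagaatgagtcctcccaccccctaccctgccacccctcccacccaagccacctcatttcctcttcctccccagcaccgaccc
VEGFC: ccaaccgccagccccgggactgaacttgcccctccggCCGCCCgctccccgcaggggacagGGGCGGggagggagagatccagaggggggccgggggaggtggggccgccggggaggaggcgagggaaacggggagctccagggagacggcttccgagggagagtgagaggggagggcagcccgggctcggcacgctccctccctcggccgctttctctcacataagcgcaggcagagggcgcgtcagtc
The ANGPT4 window held a TATA box match at position -30 from the start and 1 match to the hypoxia response core at position -156. The PDGFRA window held 2 GC box matches and 1 CCAAT box match, the VEGFC window 2 GC box matches, and the TIE1 window 1 CCAAT box match. Of 35116 windows of this length in the table, 10.7% held a TATA box match, 42.6% a GC box match, 32.0% a CCAAT box match and 18.5% a match to the hypoxia response core. CpG dinucleotides numbered 8 in the ANGPT4 window, 25 in that of PDGFRA, 1 in that of TIE1 and 22 in that of VEGFC, against a median of 11 over all windows. In the windows shown, the 2 members at or near 0 in FABP1 antisense alone thus differed in make-up, and so did the 2 members listed at 0 throughout. Another PDGFRA window, chr4:54229043-54229292, ran over an annotated exon and is not shown. It held 8 CpG dinucleotides, as many as the ANGPT4 window, and no match to any of these motifs. The difference in CpG number therefore holds for the PDGFRA start shown only.

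The libraries held 40351394 to 57979037 counts. FABP1 itself, in counts scaled to library size (CPM), ranged from 122 to 147 CPM in FABP1 antisense and from 102 to 138 in vector control. Its counts were thus not lower in the former (log2 fold change 0.16, adjusted p = 0.268 by edgeR's quasi-likelihood test), so that group is named by its label alone. It is not given whether counting used the strand, so reads of an antisense construct could be among these counts, which was not tested. Markers of colorectal epithelium were present: of 12 genes, all had counts, and their summed level was 14700 to 18000 CPM in vector control and 16500 to 19400 CPM in FABP1 antisense. Most of that sum was the keratin genes KRT8 (mean 8670 and 9450 CPM) and KRT18 (3660 and 4430 CPM). Of the 11 markers that could be tested 6 rose, 2 fell (KRT19, log2 fold change -0.51, and VIL1, -0.20) and 3 did not pass (EPCAM, KRT8 and HNF4A) in edgeR's test. Over all genes tested 27.7% rose and 27.3% fell at the same threshold, an adjusted p under 0.05. LGALS4, KRT20 and CDX1 were near 0 in vector control, at 0.455, 0.587 and 0 CPM, and stood at 12.8, 5.35 and 0.0723 CPM in FABP1 antisense. A 0 in this table is not always a count of nothing. Where the other 2 libraries of a group predicted 5 to 10 counts for a gene, the third was listed at 0 in 14.5% of 4207 cases (612, where counting error gives 6.74), and where they predicted over 50 counts in 0.0571% of 75241. Genes at 0 are therefore called listed at 0, with no upper limit and no fold against them.

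**Figure D1:**
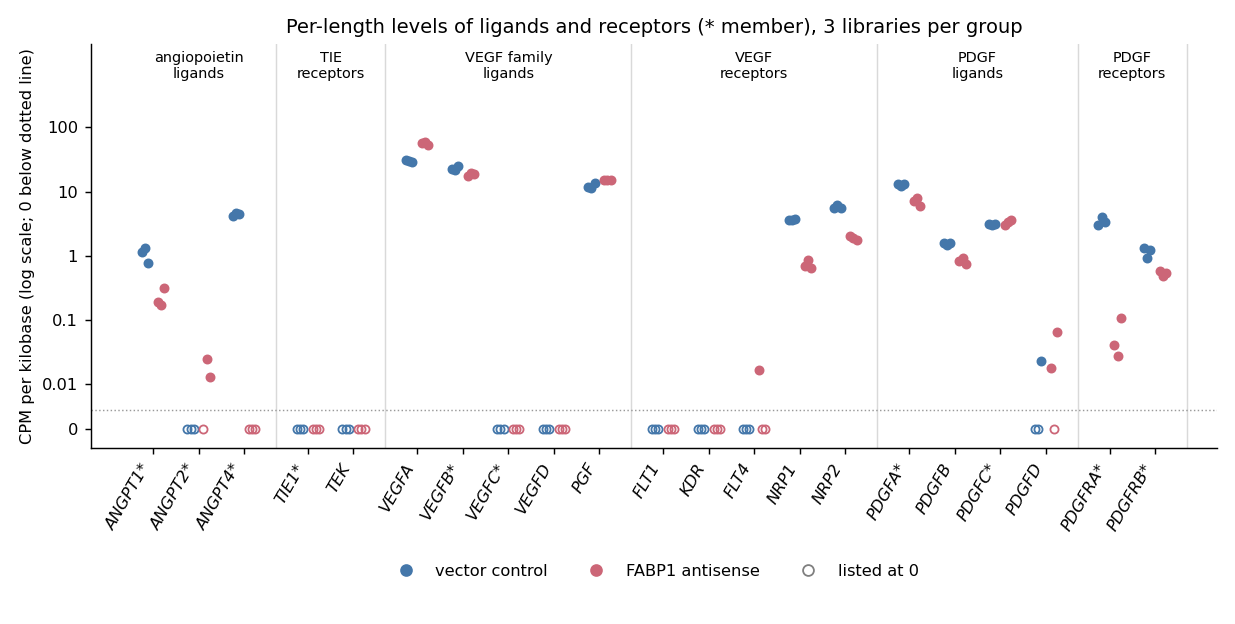
Level of each ligand and receptor in CPM per kilobase of transcript (log axis, with values of 0 set below the dotted line as open circles) in 3 vector control (blue) and 3 FABP1 antisense (red) libraries. Asterisks mark the 10 genes described. VEGFA and VEGFB stand highest in both groups, with means from 18.8 to 57.0, and TIE1, TEK, FLT1 and KDR are listed at 0 in every library.

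Several ligand messages were abundant, while the endothelial kinases TIE1, TEK, FLT1 and KDR were listed at 0 in every library. Levels of different genes are compared here as CPM per kilobase, with the longest GENCODE transcript matched to each gene, so that a shorter dominant isoform would raise a value. In vector control VEGFA, the main inducer of vessel growth, stood highest (30.0 ± 0.724, SD, n = 3), followed by VEGFB, a ligand of FLT1 (23.2 ± 1.5). PDGFA (12.8 ± 0.552) and the placental growth factor gene PGF (12.3 ± 0.982) came next and differed from each other by less than their spread. ANGPT4 (4.40 ± 0.270) stood above PDGFRA (3.45 ± 0.531) and PDGFC (3.09 ± 0.0913), and the latter 2 lay within their spread of each other. PDGFRB (1.17 ± 0.206) and ANGPT1 (1.07 ± 0.279) also lay within their spread. In FABP1 antisense the order of the members was VEGFB (18.8 ± 0.930), PDGFA (7.02 ± 0.948), PDGFC (3.32 ± 0.323), PDGFRB (0.536 ± 0.0446), ANGPT1 (0.226 ± 0.0808) and PDGFRA (0.0586 ± 0.0434), with each neighbouring pair apart by more than its spread. ANGPT2 was at 0.0126 ± 0.0124 in that group, and ANGPT4 was listed at 0.

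Of the 10 members, 7 had enough counts to pass the filter on low counts, and 6 of these met the threshold of an adjusted p under 0.05 in edgeR's quasi-likelihood fit, each of them lower in FABP1 antisense. Of all 14640 genes tested 55.0% met it, made up of 27.3% of all genes as lower and 27.7% as higher. The groups did not overlap for the same number of members (6), against 62.7% of all genes (31.0% lower and 31.7% higher). At least 2-fold lower and past the threshold were 6.12% of all genes, with ANGPT1, PDGFRA and PDGFRB among them. ANGPT4, listed at 0 in FABP1 antisense, also met the threshold as lower, with no fold given. The members were chosen on this contrast, so nothing is read from these counts. Among the 6 members with counts in both groups the log2 fold change had a median of -1.0, and over all tested genes 0.00819. In these bulk samples fewer cells with a message and less message per cell cannot be told apart.

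ANGPT4, a ligand of TEK, was the angiopoietin with the highest level in vector control and was listed at 0 in FABP1 antisense. In vector control it had 1106, 886 and 893 counts in libraries 2, 3 and 4 (19.2, 21.7 and 20.8 CPM, mean 20.6 ± 1.26, SD, n = 3) and 0 in each FABP1 antisense library. The vector control libraries lay close together, and the listed 0 of the other group is not read as a proven absence.

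ANGPT1, the main activating ligand of TEK, was lower but still present. Its level was 4.95, 5.68 and 3.31 CPM in vector control libraries 2, 3 and 4 (4.65 ± 1.22) and 0.826, 0.738 and 1.39 CPM in FABP1 antisense (0.983 ± 0.352; SD, n = 3). The highest FABP1 antisense library, 4, stayed below the lowest vector control library, also 4. The fitted log2 fold change was -2.22 (SE 0.29), or -2.57 without FABP1 antisense library 4.

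ANGPT2, which antagonises or activates TEK depending on the setting, was at the edge of detection. It was listed at 0 in all vector control libraries and at 0, 6 and 4 counts in FABP1 antisense libraries 2, 3 and 4, too few to be tested. The gene lies on the opposite strand within MCPH1 in the GENCODE annotation, and it is not given whether counting used the strand, so these reads cannot be assigned with certainty. TIE1 was listed at 0 in all 6 libraries, and so was TEK, the receptor that binds the angiopoietins. Summed over the 3 angiopoietins, the level was 5.47 ± 0.416 CPM per kilobase in vector control and 0.239 ± 0.0801 in FABP1 antisense (SD, n = 3), and ANGPT1 made up nearly all of the latter.

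**Figure D2:**
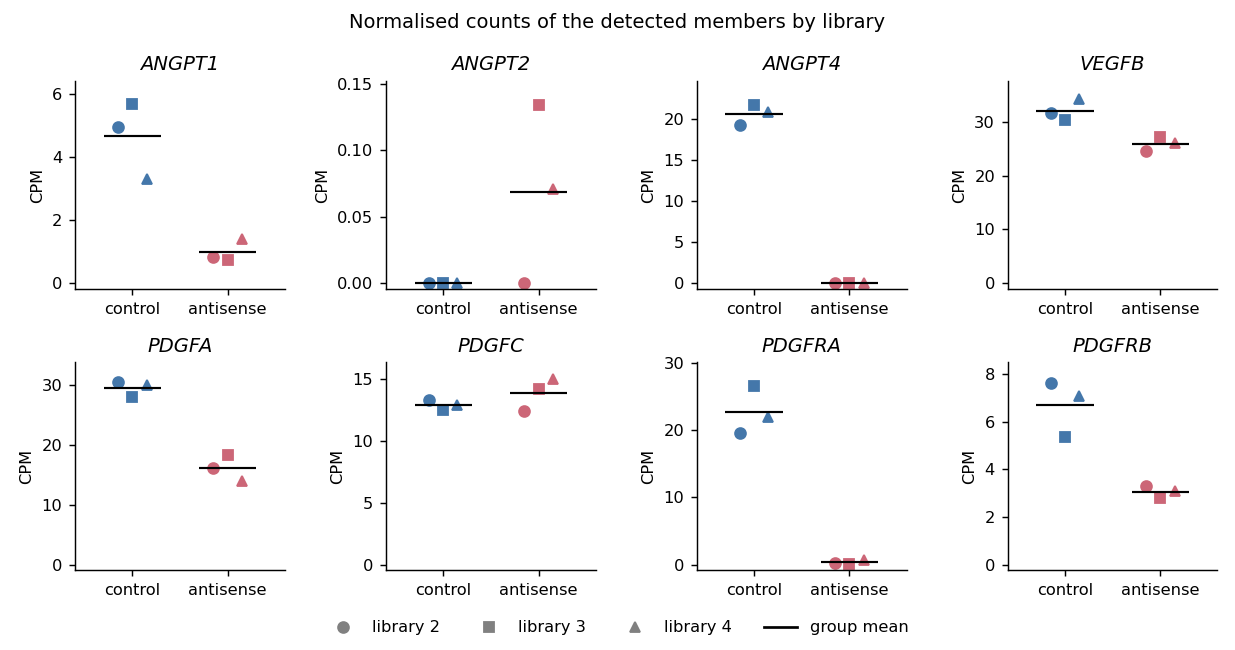
Level in CPM (linear axes that start at about 0 and differ between panels) of the 8 members with any count, by library; symbols mark the library number and lines the group mean of 3. ANGPT4 averages 20.6 CPM in vector control and is at 0 in FABP1 antisense, PDGFRA averages 22.7 and 0.386 CPM, while the PDGFC groups overlap.

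Both PDGF receptors were lower in FABP1 antisense, PDGFRA by far the more. PDGFRA binds PDGF-A, PDGF-B and PDGF-C. Its level was 19.6, 26.5 and 21.9 CPM in vector control libraries 2, 3 and 4 (22.7 ± 3.49) and 0.267, 0.179 and 0.711 CPM in FABP1 antisense (0.386 ± 0.285; SD, n = 3). These low values rest on 11, 8 and 40 counts, and library 4 held most of them, as it did for ANGPT1, while ANGPT4 was at 0 in that library too. The fitted log2 fold change was -5.78 (SE 0.32, 95% interval -6.52 to -5.05), which is 55.1-fold lower, and -6.66 without FABP1 antisense library 4. GENCODE annotates a protein-coding gene on the same strand that overlaps PDGFRA (AC058822.1), with which reads could be shared.

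PDGFRB, the receptor of PDGF-B on pericytes, stood at 7.62, 5.36 and 7.08 CPM in vector control libraries 2, 3 and 4 (6.69 ± 1.18) and at 3.30, 2.80 and 3.09 CPM in FABP1 antisense (3.06 ± 0.255; SD, n = 3). The groups did not overlap, and the fitted log2 fold change was -1.13 (SE 0.16). The balance between both receptors was reversed: per kilobase, PDGFRB stood at 0.446, 0.233 and 0.372 times the level of PDGFRA in vector control libraries 2, 3 and 4, and at 14.2, 18.0 and 5.01 times in FABP1 antisense. Their sum was 4.62 ± 0.331 CPM per kilobase in vector control and 0.595 ± 0.0696 in FABP1 antisense (SD, n = 3).

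Of the PDGF ligands, PDGFA, which acts through PDGFRA, stood at 30.5, 28.1 and 30.0 CPM in vector control libraries 2, 3 and 4 (29.5 ± 1.27) and at 16.2, 18.4 and 14.0 CPM in FABP1 antisense (16.2 ± 2.19; SD, n = 3). Every FABP1 antisense library was below every vector control library, with a fitted log2 fold change of -0.87 (SE 0.11). PDGFC, a ligand secreted in latent form and released by proteases, was the member that did not meet the threshold. Its level was 13.3, 12.5 and 12.9 CPM in vector control (12.9 ± 0.38) and 12.4, 14.2 and 15 CPM in FABP1 antisense (13.8 ± 1.35; SD, n = 3), and the groups overlapped. The log2 fold change was 0.11 with a 95% interval of -0.11 to 0.32. The PDGFC to PDGFA ratio per kilobase was 0.238 to 0.246 in vector control and 0.423, 0.428 and 0.593 in FABP1 antisense libraries 2, 3 and 4. PDGFC is overlapped on the opposite strand by an annotated antisense gene.

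Of the 2 VEGF members, VEGFC, the lymphatic growth factor that signals through FLT4, was listed at 0 in all 6 libraries. VEGFB had 31.6, 30.3 and 34.3 CPM in vector control libraries 2, 3 and 4 (32.1 ± 2.07) and 24.6, 27.1 and 26.1 CPM in FABP1 antisense (25.9 ± 1.28; SD, n = 3). The gap between the lowest vector control library and the highest FABP1 antisense library was small, and the log2 fold change was -0.31 (SE 0.08). It no longer met the threshold without FABP1 antisense library 2 (-0.27, SE 0.10).

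**Figure D3:**
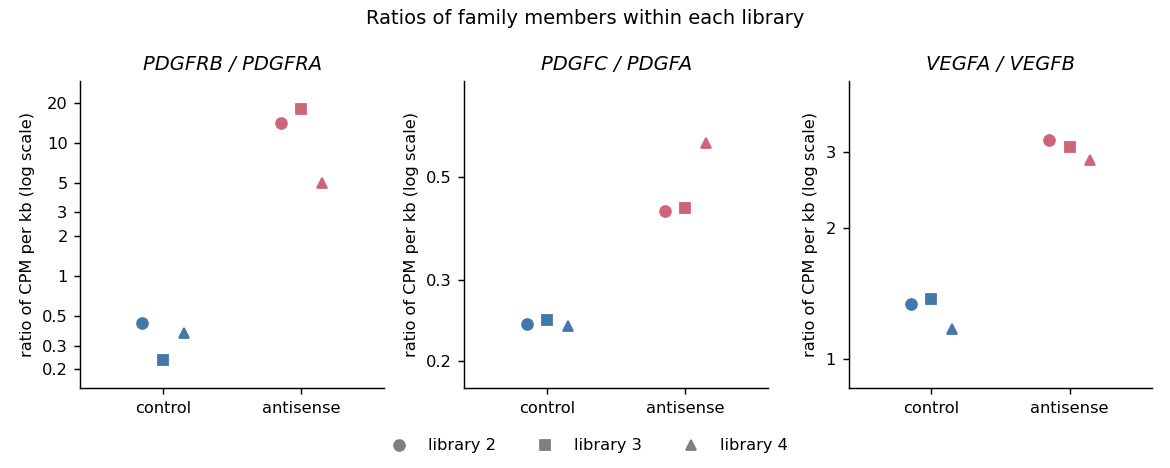
Ratio of CPM per kilobase (log axes) between members of a family within each library, for vector control (blue) and FABP1 antisense (red); symbols mark the library number. PDGFRB over PDGFRA runs from 0.233 to 0.446 in vector control and from 5.01 to 18.0 in FABP1 antisense, and library 4 is lowest of the latter.

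The remaining ligands, receptors and modulators of the 3 systems were read from lists of 15 genes, of which 8 could be tested. All 8 passed edgeR's test (adjusted p under 0.05 over all genes), 3 higher and 5 lower, where 55.0% of all genes did. With so few genes this share is a count of named genes only, and it was not tested against the rest. They had a median log2 fold change of -0.84.

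VEGFA rose from 108, 106 and 103 CPM in vector control libraries 2, 3 and 4 (106 ± 2.56) to 200, 213 and 192 CPM in FABP1 antisense (202 ± 10.6; SD, n = 3), a log2 fold change of 0.93 (SE 0.07, adjusted p = 7.7e-06, edgeR). The groups were far apart, and VEGFA and the member VEGFB therefore moved in opposite directions: their ratio per kilobase was 1.34, 1.37 and 1.17 in vector control and 3.19, 3.07 and 2.87 in FABP1 antisense. PGF, a second ligand of FLT1, rose from 23.7 ± 1.89 to 29.2 ± 0.353 CPM (SD, n = 3; 0.30, SE 0.08, adjusted p = 0.0125, edgeR), a call lost without vector control library 2 (adjusted p = 0.0604 by edgeR). Summed over the VEGF family ligands, the level was 65.5 ± 2.05 CPM per kilobase in vector control and 91.0 ± 3.44 in FABP1 antisense (SD, n = 3). VEGFD was listed at 0 throughout.

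The neuropilins were the VEGF receptors with enough counts to be tested, and both fell. NRP1 had 21.1, 21.6 and 22.4 CPM in vector control libraries 2, 3 and 4 and 4.01, 5.10 and 3.73 CPM in FABP1 antisense (log2 fold change -2.34, SE 0.12, adjusted p = 9.59e-07, edgeR). NRP2 had 36.5, 41.6 and 36.5 CPM against 13.5, 12.5 and 11.6 CPM (-1.61, SE 0.09, adjusted p = 1.84e-06, edgeR). For both genes the groups were separated by more than the whole spread within either. The kinases FLT1 and KDR were listed at 0 in all libraries, and FLT4 had 4 counts in FABP1 antisense library 2 and was listed at 0 elsewhere.

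PDGFB, the ligand of both PDGF receptors, fell from 5.61, 5.19 and 5.59 CPM to 2.87, 3.20 and 2.65 CPM in libraries 2, 3 and 4 (-0.91, SE 0.13, adjusted p = 0.000479, edgeR). This is close to the -0.87 of PDGFA, and the ratio of PDGFA to PDGFB per kilobase was 8.12 to 8.25 in vector control and 8.02 to 8.71 in FABP1 antisense, so the ranges overlapped. PDGFRL, a receptor-like protein without a kinase, fell from 1.33 ± 0.154 to 0.743 ± 0.159 CPM (SD, n = 3; -0.83, SE 0.26, adjusted p = 0.0228, edgeR). The PDGFRL call was lost when vector control library 2 or 3 or FABP1 antisense library 2 or 3 was left out (adjusted p 0.0563 to 0.0813 by edgeR). PDGFD had 4 counts in vector control and 18 in FABP1 antisense and was not tested.

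On the angiopoietin side, PTPRB, the phosphatase that restrains TEK, rose from 0, 0 and 0.140 CPM to 2.48, 2.57 and 2.35 CPM in libraries 2, 3 and 4 (5.75, SE 0.68, adjusted p = 0.000149, edgeR). The vector control value rests on 6 counts in library 4, and without that library the group is at 0 and has no fold. SVEP1, an extracellular matrix protein of vessel development, fell from 18.0 ± 0.398 to 9.90 ± 0.717 CPM (SD, n = 3; -0.86, SE 0.09, adjusted p = 4.84e-05, edgeR). The adaptor gene DOK2 had 3 counts in all.

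**Figure D4:**
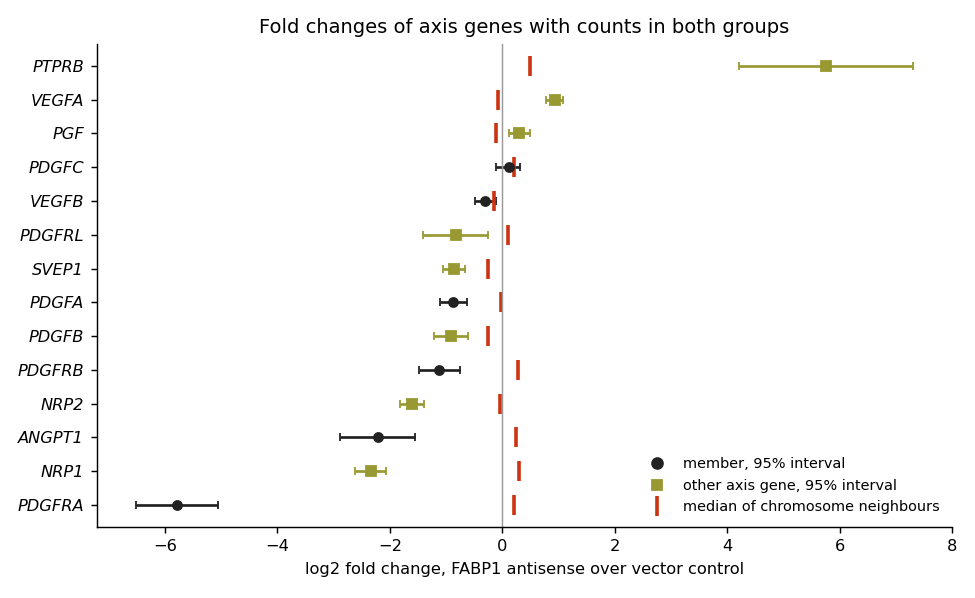
Fitted log2 fold change (FABP1 antisense over vector control, 3 libraries each) with its 95% interval for 6 members (circles) and 8 other genes of the 3 systems (squares); red bars mark the median of up to 50 neighbouring genes on each side along the chromosome. PDGFRA lies at -5.78 and its neighbours at 0.21, and the PDGFC interval includes 0.

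Each member was set beside its neighbours along the chromosome, up to 50 tested genes on either side in RefSeq gene order whose mean log2 CPM was 3 or more. The neighbours of PDGFRA and PDGFRB had medians of 0.21 and 0.27 and those of ANGPT1 0.25, opposite in sign to the members. For ANGPT4 the median was -0.11 and for PDGFA -0.02. VEGFB (-0.31) lay nearest to its surroundings among the members that met the threshold, at -0.15, and PDGFC (0.11) lay by a median of 0.21. PDGFRA, PDGFC and VEGFC are all on chromosome 4, and ANGPT1 and ANGPT2 on chromosome 8. The part of chromosomal position in these differences was not tested.

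Of the enzymes that process these ligands, the urokinase gene PLAU rose from 5.25 ± 0.234 to 33.2 ± 0.281 CPM (SD, n = 3; 2.66, SE 0.08, adjusted p = 4.4e-08, edgeR), and PCSK5, a proprotein convertase, fell from 37.7 ± 1.38 to 25.6 ± 1.64 CPM (SD, n = 3; -0.56, SE 0.08, adjusted p = 0.000416, edgeR). PLAT, the tissue plasminogen activator, which releases active PDGF-C, also rose, from 21 to 174 counts over the group (3.04, SE 0.64, adjusted p = 0.00366, edgeR); it was named after its values were seen. In all 5 of 9 could be tested, with 2 higher, 1 lower and 2 (FURIN and PCSK7) not passing, where 55.0% of all genes passed. CCBE1 and ADAMTS3, which together activate VEGF-C, were listed at 0, as was VEGFC itself.

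Adaptors and signalling enzymes that act below these and many other receptors moved both ways. Of 28 tested, 11 rose, 7 fell and 10 did not pass (64.3% passing, against 55.0% of all genes). The largest changes among the more abundant ones were rises: PIK3R1, a regulatory subunit of PI3-kinase (0.86, SE 0.08), RASA1, which turns off RAS (0.85, SE 0.10), PIK3CA, a catalytic subunit of PI3-kinase (0.71, SE 0.13), and the phosphatase gene PTPN11 (0.62, SE 0.09). Over all 28 tested genes of this list the median log2 fold change was -0.01.

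Markers of the cells in which these receptors are best known were in part listed at 0 and in part present. Of 11 endothelial markers 6 were listed at 0 in every library (CDH5, CLDN5, EMCN, ERG, PLVAP and ROBO4). PECAM1, VWF (0.0463 to 0.402 CPM, near 0 in both groups) and ESAM rose, and EGFL7 (23.2 to 15.2 CPM) fell. The endothelial sum, most of it EGFL7, was 23.4 to 32.0 CPM in vector control and 18.7 to 24.3 CPM in FABP1 antisense. Of 10 fibroblast markers 5 were listed at 0 (COL1A2, DCN, POSTN, THY1 and TWIST1), LUM (0.133 to 18.1 CPM) and COL3A1 rose, FBLN1 fell and COL1A1 did not pass. The fibroblast sum, most of it FBLN1, was 420 to 503 CPM in vector control and 242 to 275 CPM in FABP1 antisense. Of 10 markers of pericytes and smooth muscle, CSPG4 and HIGD1B were listed at 0, RGS5, MCAM, CNN1 and NOTCH3 fell, KCNJ8 and ABCC9 rose, and ACTA2 and MYH11 had 13 and 2 counts in all. That sum, in which falls and rises offset each other, was 105 to 107 CPM in vector control and 105 to 114 CPM in FABP1 antisense. Its largest part was NOTCH3 in vector control (46.2 CPM) and KCNJ8 in FABP1 antisense (42.7 CPM). Of 6 megakaryocyte and platelet markers none had enough counts to be tested, with sums of 0.147 to 0.466 and 0.179 to 0.249 CPM. These rises and falls passed edgeR's test at an adjusted p under 0.05, as did 55.0% of all genes tested (27.7% higher and 27.3% lower). The part of such markers in the levels of PDGFRA and PDGFRB was not tested.

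The genes whose levels over the 6 libraries ran most like those of ANGPT4 and PDGFRA were found by the distance between centred log2(CPM + 0.5) values among 11989 genes. For ANGPT4 these were ASGR2 (108 CPM in vector control and 2.18 CPM in FABP1 antisense, distance 0.329), SPX (35.1 and 0.145 CPM, 0.621) and MYOM3 (29.4 and 0.468 CPM, 0.692). For PDGFRA they were SULT1C4 (14.5 and 0.157 CPM, 0.478), OLR1 (21.0 and 0.386 CPM, 0.770) and ATP10D (91.6 and 3.03 CPM, 0.780). With 2 groups among the 6 libraries, the distance takes in the difference between groups. For ANGPT4, listed at 0 in FABP1 antisense, that difference is set by the pseudocount of 0.5. For PDGFRA, at a mean of 0.386 CPM in that group, the pseudocount makes it smaller. Both lists are therefore of genes alike on this scale only.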

How the data were processed

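RNA of 6 Caco-2 samples, 3 per group, was sequenced. Software in the submitters' processing notes, given without role or order, was StringTie 1.3.4d, Bowtie2 2.3.4.1, HISAT2 2.1.0, Trimmomatic 0.38 and bcl2fastq, with the GRCh37 build. The sources used here do not give the strand setting of the counting. The deposited values used were read counts per gene, not normalized by the authors, per the file headers. The 12 other per-library columns were not used. Column names gave the group but not the sample: headers number the libraries 2 to 4, the labels 1 to 3.

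Counts were filtered (filterByExpr, 14640 genes kept), scaled by TMM and tested with edgeR 4.0.16 (glmQLFit, glmQLFTest; R 4.3.3) with Benjamini-Hochberg adjustment at 0.05. CPM used TMM library sizes, and a standard error is the absolute log2 fold change over the square root of F. Members and gene lists were chosen with earlier results of these data known. Named genes were the members, FABP1, all genes of the 3 systems, and up to 4 genes per other list with the largest passing, non-overlapping changes at a mean log2 CPM of at least 1, and the 3 genes most like ANGPT4 and PDGFRA. Marker genes given with values were picked after these were seen. Transcript lengths came from GENCODE v29 by RefSeq accession, gene order from RefSeq GRCh38.p14. On data simulated from this comparison (14640 genes) 56.7% of 1.5-fold, 73.1% of 2-fold and 98.5% of 4-fold changes were recovered, with 13 false calls among 14440 genes. Only 67, 67 and 66 genes were changed by these folds, a far smaller share than the 55.0% called in the real data. The adjustment depends on that share, so these rates need not hold for the real comparison. Alternatives covered scaling, filter, DESeq2 1.42.0, each library left out and a block on header numbers.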

Additional observations from a re-analysis of the deposited data

How the results depend on the processing

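The number of members past the threshold was 6 under every change of scaling, filter or test and under the replicate block, and 5 to 6 when single libraries were left out. The members were chosen on this contrast, so this number describes the fits and lends the differences no support. Of the other genes of the 3 systems 2 to 3 were higher and 4 to 5 lower when single libraries were left out. With a replicate block on the header numbers, the adaptor and processing genes called lower went from 8 to 5, and the calls over all genes were 3355 higher and 3306 lower against 4062 and 3992; PDGFRL was lost (adjusted p = 0.0635 by edgeR). Same-numbered libraries did not deviate together (correlations 0.07, -0.21 and -0.34 over 11990 genes), so the numbers were not taken to pair the libraries. FABP1 did not pass in any of these fits (adjusted p 0.0874 to 0.677 by edgeR or DESeq2). Without 1 library of a group, the spread was estimated from the other 5. Depth limits ANGPT2, PDGFD, FLT4 and DOK2, with at most 18 counts in a group.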

Other observations

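The angiopoietin-like genes reported here, secreted relatives of the angiopoietins that do not bind TEK, were scarce in both groups. ANGPTL1, ANGPTL2, ANGPTL5, ANGPTL7 and ANGPTL8 were listed at 0 in every library. ANGPTL4, an inhibitor of lipoprotein lipase, had 0.239 ± 0.0456 CPM in vector control and 0.355 ± 0.0344 CPM in FABP1 antisense, and ANGPTL6 0.443 ± 0.0411 and 0.253 ± 0.0799 CPM (SD, n = 3). For both the groups did not overlap, but neither passed edgeR's quasi-likelihood test (adjusted p = 0.224 and 0.101, unadjusted p = 0.160 and 0.0627) or DESeq2 (adjusted p = 0.445 and 0.247).

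KCNJ8 and ABCC9, which together form a potassium channel of pericytes, rose from 15.1 ± 0.963 to 42.7 ± 2.80 CPM and from 4.59 ± 1.05 to 18.8 ± 2.16 CPM (SD, n = 3; adjusted p = 1.79e-06 and 1.22e-05 by edgeR), in the direction opposite to PDGFRB. RGS5, another pericyte gene, fell from 13.8 ± 1.57 to 3.51 ± 0.384 CPM (SD, n = 3). MCAM, CNN1 and NOTCH3, of the same marker list, also fell (log2 fold change -1.73, -2.28 and -0.27). Of the 6 genes of that list that could be tested, 4 thus fell, as PDGFRB did, and 2 rose. Over all genes tested 27.3% fell and 27.7% rose. KCNJ8 and ABCC9 both lie on chromosome 12. All these genes were named after their values were seen.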
